A study of Mus musculus with 23 samples.

Results

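Genes that mark fibroblasts, the cell type of the feeder layer on which mouse embryonic stem cells (ESCs) are grown, were followed through the 6 RNA-seq samples of a study of the histone demethylase gene Kdm2b. The 10 genes were Thy1, Pdgfrb, Acta2, Tagln, S100a4, Lum, Dcn, Postn, Ccl2 and Timp3, chosen by name from the 23369 gene names in the expression tables. All 10 were present, and rows sharing a gene name were summed. Values were FPKM (fragments scaled by transcript length and by mapped fragments), so that levels of different genes can be set side by side.

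All 6 samples came from KDM2Bfl/fl ESCs. By the study's methods the floxed allele was made in MS12 ESCs, and the line was then derived from matings of mice that carried it. This mouse line has loxP sites around a Kdm2b exon that codes for most of the ZF-CxxC DNA-binding domain. A Cre recombinase activated by tamoxifen (ERT2Cre at the Rosa26 locus) removes the exon. The gene is thus not lost as a whole, and a KDM2B protein without that domain remains. There were 3 samples labelled untreated and 3 labelled tamoxifen (800 nM 4-hydroxytamoxifen for 72 hr; the series text gives the dose in µM), each set numbered 1 to 3. The cells had been kept on mitomycin C-inactivated mouse embryonic fibroblasts with LIF and were then left overnight without feeders before treatment, and bulk RNA does not show which cells a transcript came from. All samples derived from the same floxed line, and neither a tamoxifen-treated line without Cre nor feeder cells alone were analysed here. The names of the deposited tables read opposite to the sample labels for treatment; the labels were followed, and the other reading would turn the sign of each treatment difference but leave the comparisons across replicate numbers as they are. Kdm2b itself was at 27.0, 21.5 and 27.7 FPKM in untreated and 19.9, 21.9 and 25.0 FPKM in tamoxifen replicates 1, 2 and 3, overlapping between labels, and as a whole-gene value it cannot check removal of the exon or the labels.

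Mouse embryonic fibroblasts are arrested with mitomycin C so that they no longer divide but still secrete matrix, cytokines and growth factors that sustain ESCs. Fibroblasts are recognised by a surface and receptor set (Thy1, Pdgfrb) and by the actin cytoskeleton of activated fibroblasts, or myofibroblasts (Acta2, Tagln). Other markers are the calcium-binding protein gene S100a4, the collagen-binding and cell-binding proteins of the matrix (Lum, Dcn, Postn) and secreted regulators (Ccl2, Timp3). Acta2 and Tagln are also genes of smooth muscle and are driven in both cell types by serum response factor, which binds a DNA element called the CArG box, and no single gene of the 10 is restricted to fibroblasts.

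The samples were ESC-like in their leading markers, with 12 pluripotency genes summing to 3113 to 5859 FPKM per sample and Pou5f1, the core pluripotency factor, at 369 to 832 FPKM. The 10 fibroblast genes summed to 153, 268 and 396 FPKM in untreated replicates 1, 2 and 3 and to 230, 198 and 274 FPKM in tamoxifen replicates 1, 2 and 3. Without Acta2, Tagln and S100a4, which held most of these sums, the other 7 genes came to 13.2, 44.8 and 44.0 FPKM in the untreated samples and to 12.6, 37.1 and 39.8 FPKM in the tamoxifen samples. On the latter sum both replicate 1 samples lay below the other 4, with no such separation by treatment label. In bulk RNA, fewer cells of a type and less RNA per cell cannot be told apart.

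Markers of other cell types were read beside these sums. Smooth muscle genes (Des, Smtn, Lmod1, Synpo2 and Myh11) summed to 20.3 to 34.6 FPKM, nearly all of it Des (5.04 to 15.8 FPKM) and Smtn (12.5 to 19.7 FPKM). Myh11 was at most 0.135 FPKM, and Lmod1 and Synpo2 were at most 0.598 and 0.492 FPKM. In contrast to the 7 fibroblast genes, the smooth muscle sum was highest in both replicate 1 samples, at 33.7 and 34.6 FPKM against at most 22.0 FPKM elsewhere. The pluripotency sum (4306 and 5859 FPKM against at most 3694) and the neuronal sum (66.8 and 68.7 FPKM against at most 62.8) were also highest in these samples. Endothelial genes summed to 3.52 to 6.69 FPKM and extraembryonic endoderm genes to 4.25 to 7.78 FPKM. Macrophage genes summed to 6.39 to 14.4 FPKM, nearly all of it Cd68 (5.40 to 12.8 FPKM), whereas Ptprc, a defining leukocyte gene, was at most 0.03 FPKM. T lymphocyte genes summed to 6.40 to 15.0 FPKM, most of it Lck (4.97 to 10.9 FPKM), with Cd4 at most 0.258 FPKM. Neuronal genes summed to 50.2 to 68.7 FPKM, nearly all of it Tubb3 (47.0 to 66.4 FPKM). Map2 went the other way from the neuronal sum, highest in untreated replicate 3 (2.67 FPKM) and lowest in tamoxifen replicate 1 (1.27 FPKM). Mesodermal genes summed to 3.30 to 5.52 FPKM. The part of these other cell types in the fibroblast gene values was not tested.

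Single-read steps of low genes gave depths of 0.654 to 0.954 relative to untreated replicate 1, and 11571 to 11980 rows per sample reached 1 FPKM. Loci shorter than 300 bp held 23.9% and 25.6% of all FPKM in the replicate 1 samples but 42.3% to 67.7% in the other 4, and total FPKM ranged from 549379 to 1045710. Scaling to a constant total (TPM) therefore lowers replicates 2 and 3 against replicate 1, moving the median gene to -0.79 (log2) for replicate 2 against 1 and to -0.33 for replicate 3 against 1, from -0.05 and -0.03 in the deposited values. Directions that follow are those in deposited FPKM.

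**Figure D1:**
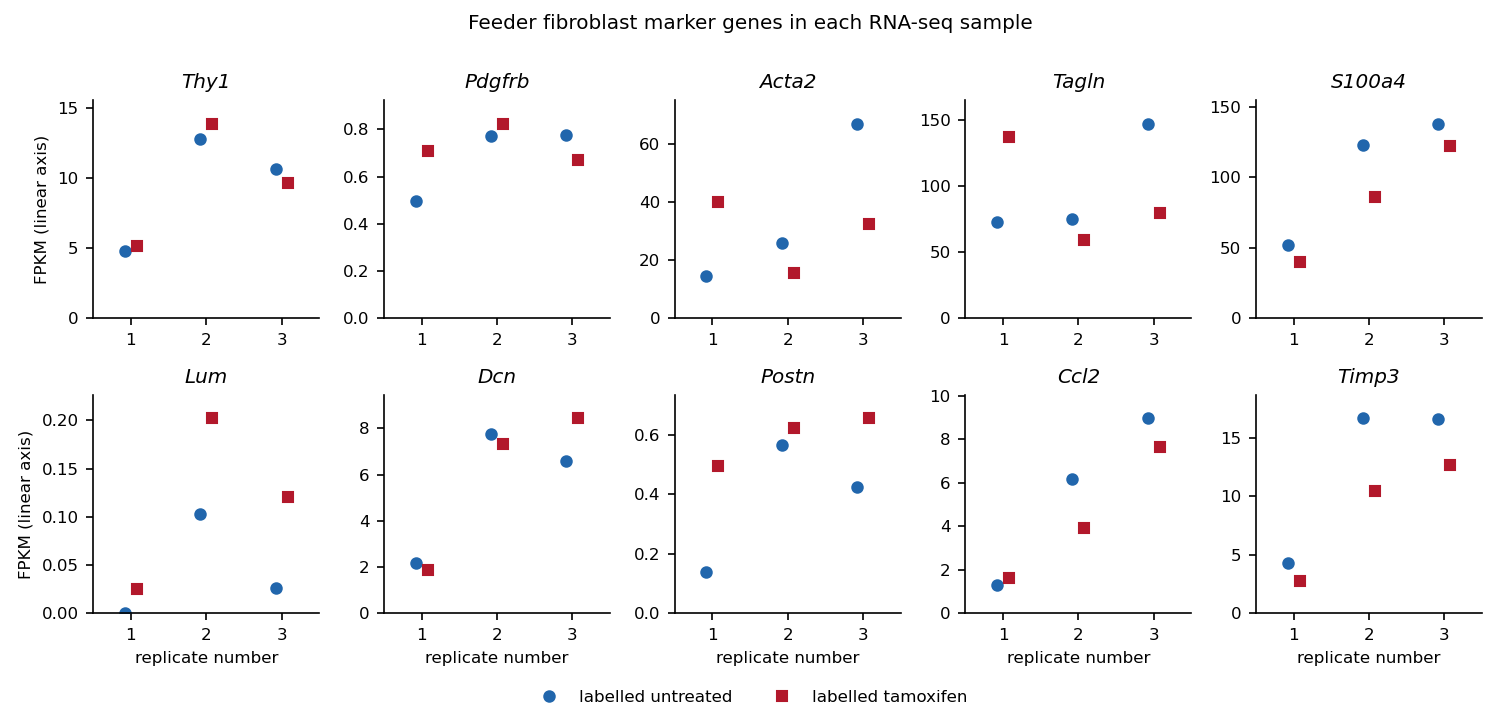
FPKM (linear axis, from 0, own scale for each gene) of the 10 fibroblast genes in the 6 samples, by replicate number; circles are samples labelled untreated and squares are samples labelled tamoxifen. Thy1, S100a4, Dcn, Ccl2, Timp3 and Lum have both replicate 1 samples below the other 4, whereas Acta2 and Tagln are highest in untreated replicate 3, at 66.9 and 147 FPKM.

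The first comparison asked how far the fibroblast genes differed between replicate numbers. Same-numbered untreated and tamoxifen samples deviated together from their group means across all genes tested (r = 0.544, 0.605 and 0.506 for numbers 1, 2 and 3, across genes, which are not independent replicates), so each number was treated as a pair. The samples of each label were biological triplicates per the study's methods. What samples with the same number share is not stated, and the p-values measure the spread between these samples, which may be technical. Of the 9 members that passed the expression filter (FPKM of at least 0.5 in at least 3 samples), 5 differed between replicate numbers (limma F test, Benjamini-Hochberg adjusted p below 0.05), 55.6% of them, where 62.8% of all 12997 genes tested did so. The share was no higher than the background. All 5 were higher in replicate 2 than in replicate 1 and higher in replicate 3 than in replicate 1, where 22.3% and 20.7% of all genes were called higher. The median difference of the 9 genes was 1.18 (log2) for replicate 2 against 1 and 1.01 for replicate 3 against 1, whereas all genes had medians of -0.05 and -0.03. Under TPM scaling the medians of the 9 genes were 0.42 and 0.71. The 5 genes are Thy1, S100a4, Dcn, Ccl2 and Timp3, and each of their 20 ratios of a replicate 2 or 3 sample over the replicate 1 sample with the same label was above 1, from 1.87 to 6.99.

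Thy1 encodes a GPI-anchored glycoprotein of the fibroblast surface, also found on thymocytes and neurons (mm9 chr9:43851467-43856662, plus strand). Its level was 4.81, 12.8 and 10.6 FPKM in untreated replicates 1, 2 and 3 and 5.16, 13.9 and 9.65 FPKM in tamoxifen replicates 1, 2 and 3. Both replicate 1 samples were the lowest, and same-numbered samples lay close together. On the log2(FPKM + 0.1) scale, replicate 2 was 1.40 ± 0.14 (SE, n = 2 per number) above replicate 1 (limma adjusted p = 0.00109), and replicate 3 was 1.01 ± 0.14 above it (limma adjusted p = 0.00235). Replicates 3 and 2 differed by -0.39 ± 0.14 (limma adjusted p = 0.0699), a difference that passed the threshold under a stricter expression filter (adjusted p = 0.0461) and was 0.05 under TPM scaling.

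Pdgfrb encodes the receptor for PDGF-BB on mesenchymal cells and pericytes (mm9 chr18:61204804-61244721, plus strand). It was below 1 FPKM in all samples, at 0.496, 0.772 and 0.775 FPKM in untreated and 0.707, 0.823 and 0.669 FPKM in tamoxifen replicates 1, 2 and 3. Untreated replicate 1 was the lowest, but tamoxifen replicate 1 lay among the others. Replicate 2 minus 1 was 0.37 with a 95% interval from -0.30 to 1.04 (limma adjusted p = 0.314), so a difference as large as that of Thy1 lies outside this interval, whereas one of up to 1.04 does not. Under TPM scaling the difference turned to -0.29. The 4 genes of its ligand family, the PDGFs, differed among themselves. Pdgfc was 1.39 and 1.73 higher (log2) in replicates 2 and 3 than in replicate 1 (limma adjusted p = 0.00181 and 0.00153) and Pdgfd 1.84 and 1.24 higher (adjusted p = 0.00267 and 0.0131). Pdgfd was low, at 0.278 and 0.175 FPKM in untreated and tamoxifen replicate 1 and 0.533 to 1.14 FPKM in the other samples. It passed the filter only through replicates 2 and 3, so its calls are partly set by the filter. Pdgfa, the most abundant of the 4 at 19.1 to 35.6 FPKM, gave -0.04 and -0.35 (adjusted p = 0.830 and 0.0863), and Pdgfb fell in replicate 3 by 0.64 (adjusted p = 0.0239). Under TPM scaling 1 of the 4 was called higher and 2 lower in replicate 2 than in replicate 1, a setting without an all-gene count for this contrast.

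Acta2 encodes smooth muscle alpha-actin, the filament of myofibroblast stress fibres (mm9 chr19:34314826-34329863, minus strand). It measured 14.6, 25.8 and 66.9 FPKM in untreated replicates 1, 2 and 3 and 40.1, 15.6 and 32.3 FPKM in tamoxifen replicates 1, 2 and 3. The highest value was 4.596 times the lowest, both within the untreated group, and same-numbered samples did not lie together. The highest value, in untreated replicate 3, lay just above its own deposited confidence interval of 59.7 to 66.1 FPKM. Tagln encodes transgelin (SM22 alpha), an actin-bundling protein (mm9 chr9:45737711-45744141, minus strand). Its level was 73.2, 74.9 and 147 FPKM in untreated and 137, 59.2 and 80.1 FPKM in tamoxifen replicates 1, 2 and 3. Untreated replicate 3 and tamoxifen replicate 1 stood high for Tagln and were also the highest pair for Acta2. Neither gene differed between replicate numbers by the F test (limma adjusted p = 0.131 for Acta2 and 0.194 for Tagln), with standard errors of 0.50 and 0.35 (log2) for each contrast against 0.14 for Thy1. Tagln overlaps Pcsk7, which was listed at 0 FPKM in 4 samples and at 7.42 and 5.89 FPKM in both replicate 2 samples.

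Calls for these 2 genes depended on the scaling and on single libraries. Under TPM scaling replicate 2 was below replicate 1 by -1.02 for Acta2 (limma adjusted p = 0.000151) and -1.34 for Tagln (adjusted p = 3.15e-08), from -0.26 and -0.59 in deposited FPKM. Of the 9 genes 7 then passed the F test, as did 8897 of all 12997 genes tested. Without loci under 300 bp the TPM-scaled value of Acta2 turned to 0.08. Tagln also passed when only genes at 1 FPKM or more in all samples were tested (adjusted p = 0.0459). Without tamoxifen replicate 1, replicate 3 was 2.11 above replicate 1 for Acta2 (limma adjusted p = 5.95e-06) and 0.87 above it for Tagln (adjusted p = 0.00402). Without untreated replicate 1 the same differences were -0.23 and -0.64. Replicate 2 minus 1 was then -1.43 for Acta2 and -1.35 for Tagln. Without tamoxifen replicate 1 it was 0.90 for Acta2 and 0.17 for Tagln, so its direction turned with the library left out.

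S100a4 encodes a calcium-binding protein long used as a fibroblast marker under the name FSP1 (mm9 chr3:90407692-90409967, plus strand). It was the most abundant of the 5 genes called, at 51.7, 123 and 138 FPKM in untreated and 39.7, 85.8 and 122 FPKM in tamoxifen replicates 1, 2 and 3. The replicate 1 samples were the lowest, and tamoxifen was below untreated at each number. Replicate 2 was 1.18 ± 0.12 (SE) above replicate 1 (limma adjusted p = 0.00118) and replicate 3 was 1.51 ± 0.12 above it (adjusted p = 0.000792). Under TPM scaling the former was 0.42 and no longer passed the threshold (adjusted p = 0.0949). In all 6 samples the deposited FPKM of S100a4 lay outside its own deposited confidence interval, for example 51.7 FPKM beside an interval of 28.5 to 36.2 in untreated replicate 1, as held for 1547 of 12921 single-row genes tested, and its level is less certain for that reason.

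Promoter sequences were examined because the profiles of Acta2 and Tagln were closest to each other and unlike those of the 5 genes called. Windows of 250 bases upstream of the annotated start were taken from RefSeq (GRCm38.p6), in which Acta2, S100a4, Postn and Timp3 of the 10 genes have an entry. Acta2 and S100a4 are shown as abundant members that differed in pattern. Timp3 is shown as the member with the largest difference between replicates 3 and 1 after Ccl2. Sequences run 5′ to 3′ on the gene's strand, with capitals marking matches to the CArG box (2 C, 6 A or T, 2 G; both strands, at most 1 mismatch among the central 6), at chr19:34255374-34255623 (minus strand), chr10:86300162-86300411 (plus strand) and chr3:90603520-90603769 (plus strand).
Acta2: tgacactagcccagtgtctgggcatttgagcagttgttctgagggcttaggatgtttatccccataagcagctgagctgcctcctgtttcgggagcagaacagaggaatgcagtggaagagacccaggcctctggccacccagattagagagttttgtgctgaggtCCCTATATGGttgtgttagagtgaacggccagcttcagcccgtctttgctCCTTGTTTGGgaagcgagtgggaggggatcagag
Timp3: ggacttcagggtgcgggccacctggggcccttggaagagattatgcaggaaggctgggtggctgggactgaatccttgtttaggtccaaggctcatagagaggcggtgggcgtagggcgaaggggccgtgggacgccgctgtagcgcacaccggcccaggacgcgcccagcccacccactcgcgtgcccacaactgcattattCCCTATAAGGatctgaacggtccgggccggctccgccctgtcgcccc
S100a4: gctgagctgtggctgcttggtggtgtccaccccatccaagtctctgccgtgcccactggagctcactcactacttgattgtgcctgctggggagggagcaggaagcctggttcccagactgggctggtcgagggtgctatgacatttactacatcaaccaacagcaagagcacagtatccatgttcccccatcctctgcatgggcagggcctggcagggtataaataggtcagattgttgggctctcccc
The Acta2 window held 2 such matches, beginning 84 and 34 bases before the start, the Timp3 window held 1, beginning 47 bases before it, and the S100a4 window held none. No window held a match without mismatch. Among 32851 windows of the same length, 1.47% held a perfect match and 8.59% a match with at most 1 mismatch. The S100a4 window held TATAAA 31 bases before the start, a motif found on either strand in 12.4% of windows. CG dinucleotides numbered 18 for Timp3, 4 for Acta2 and 2 for S100a4, against a median of 6 over all windows, and 21.7% of windows held at least 18. A match of letters is a description and says nothing of a factor's binding.

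Dcn encodes decorin, a small leucine-rich proteoglycan that binds collagen fibrils (mm9 chr10:96942134-96980796, plus strand). It stood at 2.19, 7.74 and 6.59 FPKM in untreated and 1.88, 7.33 and 8.44 FPKM in tamoxifen replicates 1, 2 and 3. The 4 samples numbered 2 and 3 lay within 1.85 FPKM of one another, all above both replicate 1 samples. Replicate 2 was 1.84 ± 0.18 (SE) above replicate 1 (limma adjusted p = 0.00109), and replicate 3 was 1.83 ± 0.18 above it (adjusted p = 0.00127). Between replicates 3 and 2 the difference was -0.01, with an interval from -0.43 to 0.40, and it was 0.43 under TPM scaling.

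Lum, next to Dcn on chromosome 10 (mm9 chr10:97028135-97035337, plus strand), encodes lumican, a proteoglycan of the same family. It was listed at 0, 0.103 and 0.0257 FPKM in untreated and 0.0249, 0.202 and 0.121 FPKM in tamoxifen replicates 1, 2 and 3. The replicate 1 samples were again lowest, but untreated replicate 3 exceeded tamoxifen replicate 1 by only 0.000889 FPKM, and Lum did not pass the filter. Postn encodes periostin, a secreted matricellular protein (mm9 chr3:54165029-54194963, plus strand), and measured 0.139, 0.565 and 0.423 FPKM in untreated and 0.493, 0.624 and 0.654 FPKM in tamoxifen replicates 1, 2 and 3. Untreated replicate 1 was the lowest, while tamoxifen replicate 1 exceeded untreated replicate 3. Its replicate 2 minus 1 difference of 0.88 ± 0.38 did not pass the threshold (limma adjusted p = 0.0885) and was 1.38 without tamoxifen replicate 1. Postn reached 0.5 FPKM only in samples of replicates 2 and 3, so the filter favours this direction. The 3 matrix genes thus spanned from near 0 to 8.44 FPKM.

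Ccl2 encodes a chemokine that draws monocytes (mm9 chr11:81849079-81850954, plus strand). Its level was 1.28, 6.16 and 8.95 FPKM in untreated and 1.61, 3.90 and 7.63 FPKM in tamoxifen replicates 1, 2 and 3. It was lowest at number 1 and highest at number 3 under both labels and showed the largest difference of the 9 genes, replicate 3 being 2.44 ± 0.23 (SE) above replicate 1 (limma adjusted p = 0.00116). Replicate 2 was 1.70 ± 0.23 above replicate 1 (adjusted p = 0.00172). Replicate 3 minus 2 was 0.74 ± 0.23 and missed the threshold narrowly (adjusted p = 0.0514), passing it with a pseudocount of 1 (0.65, adjusted p = 0.0308).

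Timp3 encodes a matrix-bound inhibitor of metalloproteinases (mm9 chr10:85763157-85812250, plus strand, within the span of Syn3, itself at 0.168 to 0.284 FPKM). It measured 4.28, 16.6 and 16.6 FPKM in untreated and 2.71, 10.4 and 12.7 FPKM in tamoxifen replicates 1, 2 and 3. Both replicate 1 samples were far below the rest, and at each number the tamoxifen sample was the lower. Replicate 2 was 1.92 ± 0.14 (SE) above replicate 1 (limma adjusted p = 0.000728) and replicate 3 was 2.06 ± 0.14 above it (adjusted p = 0.000445), the smallest adjusted p-values of the 9 genes for these contrasts.

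**Figure D2:**
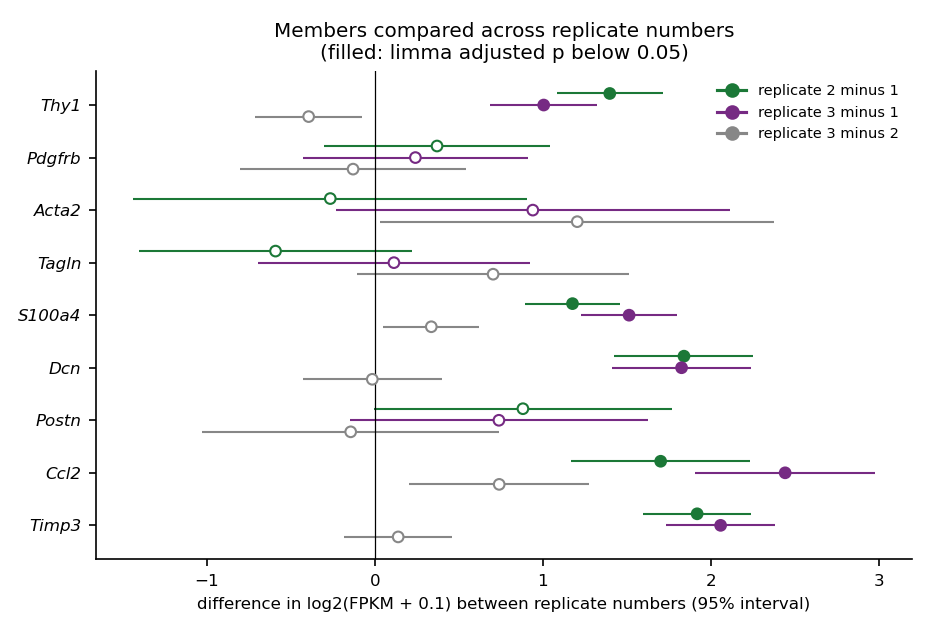
Differences between replicate numbers in log2(FPKM + 0.1) for the 9 genes tested (x axis, points with 95% intervals from limma; filled where the adjusted p is below 0.05). Thy1, S100a4, Dcn, Ccl2 and Timp3 lie to the right of 0 for both contrasts with replicate 1, from 1.01 to 2.44, and no gene is filled for replicate 3 minus 2.

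None of the 9 genes differed between replicates 3 and 2 in deposited FPKM (limma), where 24.5% of all genes did. This count depended on the setting. When only genes at 1 FPKM or more in all samples were tested, 5 of the 7 members then tested were called (Thy1, Acta2, Tagln, S100a4 and Ccl2). No all-gene count was made for this contrast in that setting, so the 5 of 7 has no background and the 24.5% does not apply to it. In all, 6 of the 10 genes, Lum included, had both replicate 1 samples below all 4 others. Among genes tested this held for 5 of 9 and for 19.8% of the background.

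The second comparison addressed tamoxifen, the step that removes the ZF-CxxC exon of Kdm2b. For all 10 genes the untreated and tamoxifen groups overlapped, where the groups did not overlap for 8.49% of all genes tested. None of the 9 genes tested differed between the labels without a replicate block (limma), with 0.0308% of all genes, or 4, called; at an unadjusted p below 0.05 there were 623 genes in all and none of the 9. The median difference, tamoxifen minus untreated, was -0.10 (log2) over the 9 genes and -0.02 over all genes. Group means ± SD (n = 3) were 9.40 ± 4.12 FPKM untreated and 9.55 ± 4.35 FPKM tamoxifen for Thy1, and 5.51 ± 2.93 and 5.88 ± 3.51 FPKM for Dcn. Their differences of 0.03 ± 0.45 (SE) and 0.02 ± 0.63 both had limma adjusted p = 1.00, and their directions turned to -0.06 and -0.07 under TPM scaling without loci under 300 bp. For Ccl2 the means were 5.47 ± 3.88 and 4.38 ± 3.04 FPKM, and for Pdgfrb 0.681 ± 0.160 and 0.733 ± 0.0804 FPKM.

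Fitting the replicate number as a block narrowed the intervals of the genes whose same-numbered samples lay together. The block brought 1 of the 9 genes past the threshold, where 10.4% of all genes passed and 6.06% were called lower. That gene was Timp3, at 12.5 ± 7.13 FPKM untreated and 8.59 ± 5.22 FPKM tamoxifen (mean ± SD, n = 3), with tamoxifen over untreated ratios of 0.633, 0.625 and 0.761 at numbers 1, 2 and 3. Its difference was -0.57, with an interval from -2.101 to 0.96 without the block (limma adjusted p = 0.999) and from -0.83 to -0.31 with it (adjusted p = 0.0236). With the block, it no longer passed without replicate 2 (-0.52, adjusted p = 0.187), without replicate 3 (-0.66, adjusted p = 0.0502) or under TPM scaling. S100a4 had ratios of 0.768, 0.700 and 0.884 and a blocked difference of -0.36 with an interval from -0.59 to -0.12, which missed the threshold (adjusted p = 0.0619) and passed it under quantile normalization (adjusted p = 0.0491).

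For Acta2 and Tagln the ratio lay above 1 at number 1 and below 1 at numbers 2 and 3. The tamoxifen over untreated ratio of Acta2 was 2.75 at number 1, 0.605 at number 2 and 0.483 at number 3, and that of Tagln was 1.88, 0.790 and 0.544. The untreated and tamoxifen means were 35.8 ± 27.6 and 29.3 ± 12.5 FPKM (SD, n = 3) for Acta2 and 98.4 ± 42.3 and 92.2 ± 40.5 FPKM for Tagln. Their blocked differences were -0.11 ± 0.41 (SE, limma adjusted p = 0.889) and -0.10 ± 0.28 (adjusted p = 0.835). Without number 1 these became -0.88 (adjusted p = 0.000507) and -0.61 (adjusted p = 0.0117), so that 1 pair of libraries decides whether the genes are called lower with tamoxifen. Postn had a difference of 0.65 (blocked limma adjusted p = 0.201), which was 0.22 with a pseudocount of 1 and 0.22 without untreated replicate 1, and ratios of 3.56, 1.10 and 1.55, from levels of 0.376 ± 0.217 FPKM untreated and 0.590 ± 0.0856 FPKM tamoxifen (SD, n = 3).

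**Figure D3:**
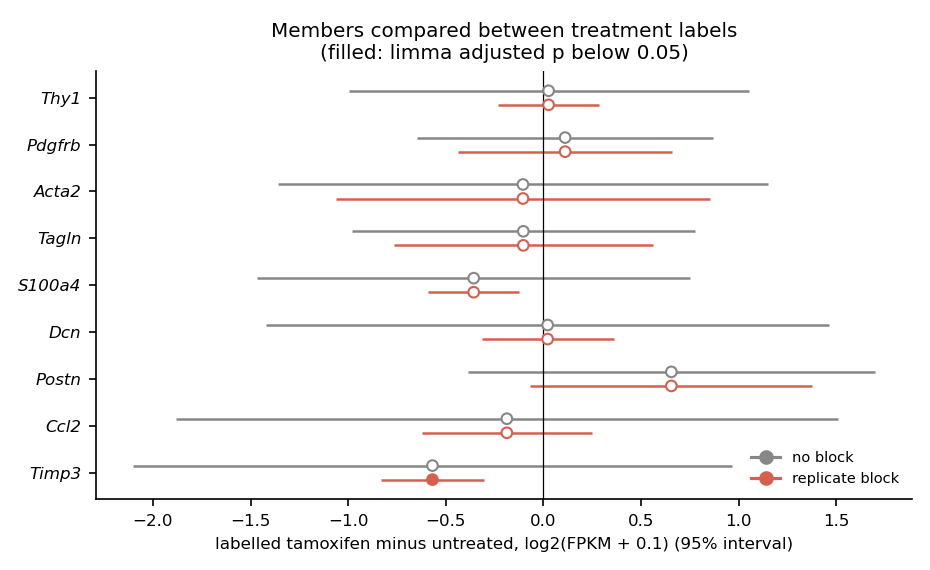
Samples labelled tamoxifen minus samples labelled untreated in log2(FPKM + 0.1) for the 9 genes tested (x axis, points with 95% intervals from limma, without and with the replicate block; filled where the adjusted p is below 0.05). Only the blocked value of Timp3, -0.57, is filled, and the intervals of Acta2 and Tagln stay wide with the block.

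Other genes of fibroblast biology, in 5 lists of 66 genes that leave out the 10, were compared in the same way. Of the 57 tested, 41 were higher and 7 lower in replicate 2 than in replicate 1, and 37 higher and 4 lower in replicate 3 than in replicate 1 (limma), with medians of 1.14 and 0.88. Among all genes, also in deposited FPKM, 22.3% were higher and 26.7% lower in the former contrast, and 20.7% and 22.2% in the latter. All 7 that were lower in replicate 2 belonged to the contractile list. Under TPM scaling the counts were 18 higher and 12 lower for replicate 2 and 23 higher and 6 lower for replicate 3. The medians were then 0.38 and 0.59, beside -0.79 and -0.33 over all genes. No all-gene count was made for these contrasts under other scalings, so counts given there, also for single lists, have no background. In 37 of the 57 both replicate 1 samples lay below the other 4. A few low genes of these lists reached 0.5 FPKM only in replicates 2 and 3, so the filter favours this direction for them.

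Matrix genes rose nearly throughout, with 19 of 20 tested genes higher and none lower in replicate 2 than in replicate 1 and 15 higher and 1 lower in replicate 3 than in replicate 1. Fn1, which encodes fibronectin, had 65.0, 124 and 92.2 FPKM in untreated and 56.3, 143 and 98.7 FPKM in tamoxifen replicates 1, 2 and 3. The collagen gene Col1a1 was 1.17 and 0.81 higher (log2) in replicates 2 and 3 (limma adjusted p = 0.00136 and 0.00426) and the fibulin gene Fbln2 1.97 and 1.30 higher (adjusted p = 0.000599 and 0.00140). Sparc, the most abundant at 249 to 451 FPKM, was 0.57 higher in replicate 2 (adjusted p = 0.0227) and gave 0.11 in replicate 3 (adjusted p = 0.612). Between replicates 3 and 2, 7 matrix genes were lower and none higher in replicate 3, where 13.6% and 10.9% of all genes were. Under TPM scaling the matrix list kept its direction, at 7 higher and none lower for replicate 2 against 1.

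Secreted cytokines and growth factors behaved as Ccl2 did in the contrasts with replicate 1, all 6 tested of 10 being higher in both replicates 2 and 3. Among all genes 22.3% and 20.7% were called higher in these contrasts. Csf1, the macrophage growth factor, ran at 2.95, 9.61 and 9.33 FPKM in untreated and 2.78, 6.26 and 5.38 FPKM in tamoxifen replicates 1, 2 and 3. Under TPM scaling 4 of the 6 were called higher in replicate 2 and 3 in replicate 3, and under quantile normalization 4 in each. Fgf7, a fibroblast-derived factor for epithelium, was 2.64 higher (log2) in replicate 3 than in replicate 1 (limma adjusted p = 0.00159). Its level was 0.418 and 0.0943 FPKM in untreated and tamoxifen replicate 1 and 0.630 to 2.30 FPKM in the other samples. Like another of the 6, it passed the filter only through replicates 2 and 3, so such calls are partly set by the filter. Of 8 proteases and inhibitors, the company of Timp3, 7 were higher and none lower in replicate 2 than in replicate 1, and 5 and none in replicate 3. Under TPM scaling these were 4 and none in replicate 2 and 5 and none in replicate 3. Timp2 stood at 23.4, 78.5 and 75.0 FPKM in untreated and 12.95, 51.8 and 61.2 FPKM in tamoxifen replicates 1, 2 and 3.

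Mesenchymal surface and transcription factor genes were mixed, with 7 of 13 tested higher in replicate 2 and 8 in replicate 3, and none lower. Cd44, a hyaluronan receptor, was 2.27 and 2.41 higher (log2; limma adjusted p = 0.000248 and 0.000187). The abundant genes Lgals1 and S100a6 gave -0.11 and 0.14 for replicate 2 against 1 (adjusted p = 0.642 and 0.565). Under TPM scaling 3 genes of the list were higher and 5 lower in replicate 2 than in replicate 1, so the direction of its less changed genes rests on the scaling.

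Contractile genes differed from the other lists in direction. Of 10 tested, 7 were lower and 2 higher in replicate 2 than in replicate 1 (median -0.64), and 3 lower and 3 higher in replicate 3 (median -0.32). Among all genes 26.7% were lower and 22.3% higher in the former contrast, and 22.2% and 20.7% in the latter. The replicate 3 counts of this list were thus near the background. Tpm1, which encodes tropomyosin, was at 237, 161 and 226 FPKM in untreated and 252, 149 and 176 FPKM in tamoxifen replicates 1, 2 and 3. Tagln2 fell by 0.65 and 0.59 (log2) in replicates 2 and 3 (limma adjusted p = 0.0128 and 0.0212) and Cnn2, a calponin, by 0.76 and 0.44 (adjusted p = 0.00489 and 0.0442). Flna, the actin cross-linker filamin A, rose by 0.99 and 0.60 (adjusted p = 0.00170 and 0.0106). Under TPM scaling without loci under 300 bp the counts for replicate 2 were 3 lower and 3 higher, so the excess of lower genes depends on the scaling. Pluripotency genes were 6 lower and 2 higher of 12 in replicate 2 than in replicate 1, against the same 26.7% and 22.3% of all genes. Pou5f1 was among those lower (-0.86, limma adjusted p = 0.00236). In replicate 3, 3 of the 12 were lower and none higher, the lower count being near the 22.2% of all genes. For replicate 2 there were 10 lower and none higher under TPM scaling, but 3 lower and 2 higher under quantile normalization and under TPM scaling without loci under 300 bp, so this excess too depends on the scaling.

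**Figure D4:**
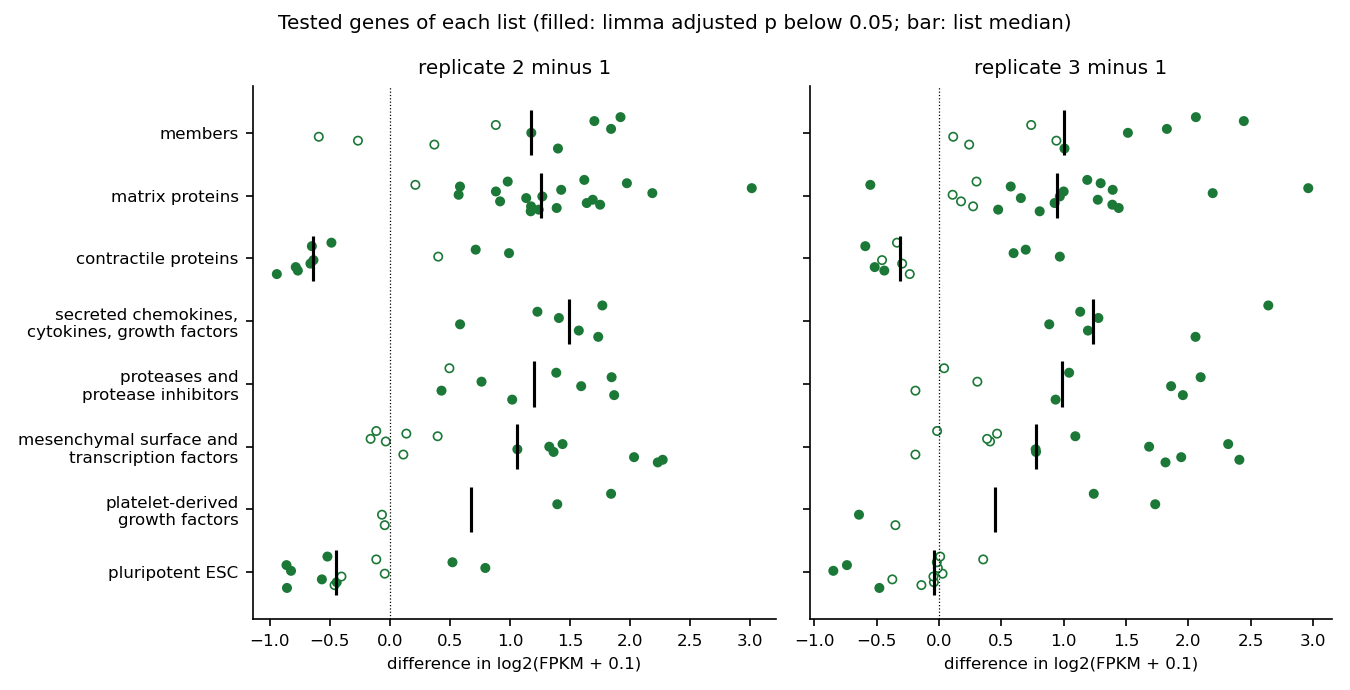
Differences between replicate numbers in log2(FPKM + 0.1) (x axis) for the tested genes of each list, 1 point per gene, filled where the limma adjusted p is below 0.05, with a bar at the list median. Matrix, secreted and protease genes lie mostly to the right of 0 in both panels (medians 0.95 to 1.49), and contractile genes mostly to the left in replicate 2 minus 1 (median -0.64).

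None of the 57 genes was called between treatment labels without the block (limma; 0.0308% of all genes were). With the block 1 was higher and 9 were lower, against 4.33% and 6.06% of all genes. Among those named above, Timp2 (-0.58, blocked limma adjusted p = 0.0263), Fbln2 (-0.43, adjusted p = 0.0463) and Fgf7 (-1.04, adjusted p = 0.0389) were lower with tamoxifen, as was the metalloproteinase gene Mmp14 (-0.76, adjusted p = 0.0103) and the chemokine gene Cxcl12 (-0.75, adjusted p = 0.0119). These blocked calls were not rerun in other settings. Over all genes, blocked lower calls went from 787 to 336 under TPM scaling and to 43 without replicate 2, and Timp3 lost its call in both.

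The members were compared with one another by the root mean square distance between their log2 profiles, centred on each gene's mean over the 6 samples. Dcn and Timp3 were the closest pair at 0.317, and Acta2 and Tagln, at 0.394, were each other's nearest member. Tagln and Timp3 were the farthest pair at 1.18. Against the mean profile of the members, S100a4 was the nearest member (0.260) and Tagln the farthest (0.687), with a median of 0.631 over all genes tested. Each member enters this mean, which lowers its own distance, so the members and the median are not compared on equal terms. The genes of the whole table whose profiles were most like the members' mean were Zfp758 (0.097), Emp3 (0.098), Znf41-ps, Ptpre, Limch1, Zfp345, Akap2, Zfp397, Fxyd5 and Zfp169 (0.138), over 6 samples. Emp3, an epithelial membrane protein family gene, had 7.38, 20.6 and 20.7 FPKM in untreated and 10.4, 16.5 and 17.6 FPKM in tamoxifen replicates 1, 2 and 3.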

How the data were processed

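Expression was measured by directional polyA+ RNA-seq in 3 untreated and 3 tamoxifen samples. The authors deposited FPKM per gene row, with an interval and a status, made per their methods and processing notes with TopHat2 (version given as 0.5) and Cuffdiff 2.1.1 on mm9 refGene models. Samples were grouped by their labels.

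FPKM were summed by gene name, and 6 gene names with a failed status were left out. The 12997 genes with FPKM of at least 0.5 in at least 3 samples were tested on log2(FPKM + 0.1), which understates changes of low genes, with limma 3.58.1 in R 4.3.3 (trended eBayes, Benjamini-Hochberg adjustment over all genes, threshold 0.05). Treatment was fitted alone and, separately, with replicate number as a blocking term, and replicate numbers in a model with treatment. The numbers were taken to pair the samples because every same-number correlation exceeded 0.1. The script was tested on simulated data. Read totals are unknown, since FPKM hold no counts, so no counting interval is given. Whether counting used strand is not given in the sources used here. In other lists, the 4 genes with the highest mean FPKM were eligible to be named, and 10 nearest profiles were listed. Myh11 of the smooth muscle list was named besides these. The members and lists were chosen with earlier results of these data known. Alternatives covered pseudocounts of 1 and 0.01, filters, scalings, the block and leaving out each sample. Summaries used Python 3.11.15 with pandas 2.3.3 and numpy 2.4.6. ChIP-seq samples were not used.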

Additional observations from a re-analysis of the deposited data

How the results depend on the processing

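The 5 genes called between replicate numbers kept their direction against replicate 1 in each alternative run, and lost a call in 1 case, S100a4 under TPM scaling. Read depth, unknown in absolute terms, limits the low genes Pdgfrb, Postn and Lum most, and 2 samples per number limit each contrast. The cause of the following shifts was not tested.

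Between treatment labels, 3 genes were higher and 1 lower of all tested, 0 and 0 when 1 FPKM in all samples was required, and 0 lower with a pseudocount of 1. The replicate block gave 563 higher and 787 lower, with TPM scaling 430 and 336, and with quantile normalization 558 and 586, the last 2 settings chosen after seeing the data. Leaving out 1 sample gave 2 to 5 higher and 0 to 7 lower. With the block, leaving out numbers 1, 2 and 3 gave 744, 36 and 359 higher and 1011, 43 and 478 lower. Fibroblast genes called numbered 0 without the block, 1 with it, 3 with it and without number 1, 0 without number 2 or 3, 0 with TPM scaling and 2 with quantile normalization. The block changed no other call of the 9 genes. Genes called by the F test, 8163 in all, numbered 4168 to 9100 when 1 sample was left out, the lowest without untreated replicate 2. Calls for replicate 3 minus 2 went from 0 to 1 (pseudocount 1), 5 (1 FPKM in all samples), 4 (TPM scaling), 1 (TPM without loci under 300 bp) and 0 to 5 when 1 sample was left out. Fibroblast genes called by the F test went from 5 of 9 to 7 of 9 under TPM scaling, where 8897 of all 12997 genes were called. With 1 FPKM in all samples 7 of the 7 then tested were called, where 7979 of all 10793 genes were. For replicate 3 minus 2 no all-gene count was made in any alternative setting, so the changes in its calls have no background. Acta2 and Tagln gained a call for replicate 2 minus 1 under TPM scaling, as did Tagln with 1 FPKM in all samples.

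Signs turned for values that did not pass the threshold in the main fit, with deposited FPKM and all 6 samples. Between labels, TPM without loci under 300 bp gave Thy1 -0.0611 and Dcn -0.0667. Leaving out 1 sample moved Thy1 between -0.39 and 0.41, Pdgfrb between -0.0729 and 0.20, Acta2 between -0.61 and 0.49, Tagln between -0.44 and 0.23, S100a4 between -0.80 and 0.10, Dcn between -0.53 and 0.69, Ccl2 between -1.003 and 0.38 and Timp3 between -1.21 and 0.11, while Postn stayed between 0.22 and 0.96. With the block, leaving out number 1 gave Thy1 -0.0103 and Pdgfrb -0.0522, number 2 gave Thy1 -0.0181, Acta2 0.20, Tagln 0.0148 and Ccl2 0.0415, and number 3 gave Acta2 0.37, Tagln 0.28 and Dcn -0.14. For replicate 2 minus 1, TPM gave Pdgfrb -0.29 and TPM without loci under 300 bp gave Acta2 0.0768; leaving out 1 sample moved Acta2 from -1.43 to 0.90 and Tagln from -1.35 to 0.17. For replicate 3 minus 1, TPM gave Pdgfrb -0.0235 and Tagln -0.19; leaving out 1 sample moved Pdgfrb from -0.0021 to 0.49, Acta2 from -0.23 to 2.11 and Tagln from -0.64 to 0.87. For replicate 3 minus 2, TPM gave Thy1 0.0505, Pdgfrb 0.27, Dcn 0.43 and Postn 0.25, and quantile normalization gave Postn 0.0112; leaving out 1 sample moved Pdgfrb from -0.35 to 0.0946, Dcn from -0.26 to 0.23 and Postn from -0.54 to 0.26.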
